A study of Mus musculus with 12 samples.

Results

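Nnat encodes neuronatin, a small membrane protein of the endoplasmic reticulum, and was 1 of 3532 rows with a usable name in tables of mRNA from mouse aorta. It was found by its symbol in every file, and it was chosen by its FPKM, which was known to be high in HFD libraries, so its values below are a description and carry no test. All groups were aorta. HSAPN animals carried an APPL1 knockdown and ate a high-fat diet. HAPN and HFD animals had the WT genotype and ate the same diet (60% kcal fat, 12 weeks), and WT animals had the WT genotype and ate a normal diet. The labels give HAPN and HFD the same genotype and diet, and they say neither what sets HAPN apart nor how APPL1 was knocked down; Appl1 itself was not analysed here. Each group had 3 files. Replicates 1 and 2 of HFD held the same values throughout and stand below as a single library, HFD replicate 1, which left 11 distinct libraries with 2 in HFD and 3 in each other group. Nothing in the labels says whether replicates came from separate animals, so p-values measure only the spread between these samples.

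Neuronatin is a proteolipid of the reticulum membrane, first described in the newborn brain and made in neurons, pancreatic beta cells and fat tissue. It resembles small membrane proteins that restrain the calcium pump of the reticulum, it binds a subunit of the signal peptidase in mouse beta cells, and it has been described as a gene of inflamed endothelium in the aorta of diabetic mice. The gene is imprinted: the copy inherited from the father is transcribed and the mother's copy is silent. It lies inside an intron of Blcap, a gene of the opposite strand.

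In GRCm38, by the GENCODE M21 annotation, Nnat (ENSMUSG00000067786.16) spans chr2:157560078-157562522 on the plus strand, and Blcap spans chr2:157556362-157571274 on the minus strand. No exonic base is shared by these 2 genes. Of 10 annotated Nnat transcripts, Nnat-202 encodes a protein of 81 residues and Nnat-205 one of 54 residues. They differ by the middle exon (chr2:157561213-157561293, 81 bases, 27 residues), which Nnat-205 skips. The deposited values count both forms together. A change in the share of the longer form cannot be seen in 1 value per gene.

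The files name no unit. Their values were read as FPKM, reads scaled to exon length and to the library's total. Multiplied by the 1829 exonic bases of Nnat and the read total fitted for each library (15685000 to 17881000), each Nnat value came within 0.0143 of a whole read. Nnat therefore had 173 to 902 reads in a library. Intervals on reads cover counting error only, since reads without molecular identifiers are not independent molecules. The 1829 bases join the exons of every form, and single transcripts are 386 to 1448 bases long, so the FPKM of Nnat is low relative to a value per transcript. Smooth muscle genes of the aorta wall were present but uneven, with the actin gene Acta2 at 146 to 1607 FPKM and Tagln at 0.279 to 3.32 FPKM. Genes of other tissues were as high or higher in some libraries: Bpifa1, secreted in the airway, reached 3848 FPKM in HAPN replicate 2, 6438 FPKM in HFD replicate 1 and 10730 FPKM in WT replicate 2.

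In HSAPN the FPKM of Nnat was 9.04, 11.6 and 12.0, and in HAPN it was 6.03, 7.09 and 6.03. In HFD it was 31.0 and 17.9, and in WT it was 6.69, 5.50 and 9.81 (replicates in order). Both HFD libraries were above all of the others, and the lower of them was 1.496 times the highest library of any other group, HSAPN replicate 3. The highest library held 5.63 times the level of the lowest, WT replicate 2. In both HFD libraries at least 92.5% of the genes in the table had a lower level than Nnat, against 80.7% in WT replicate 2, the lowest share of the 11 libraries.

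**Figure D1:**
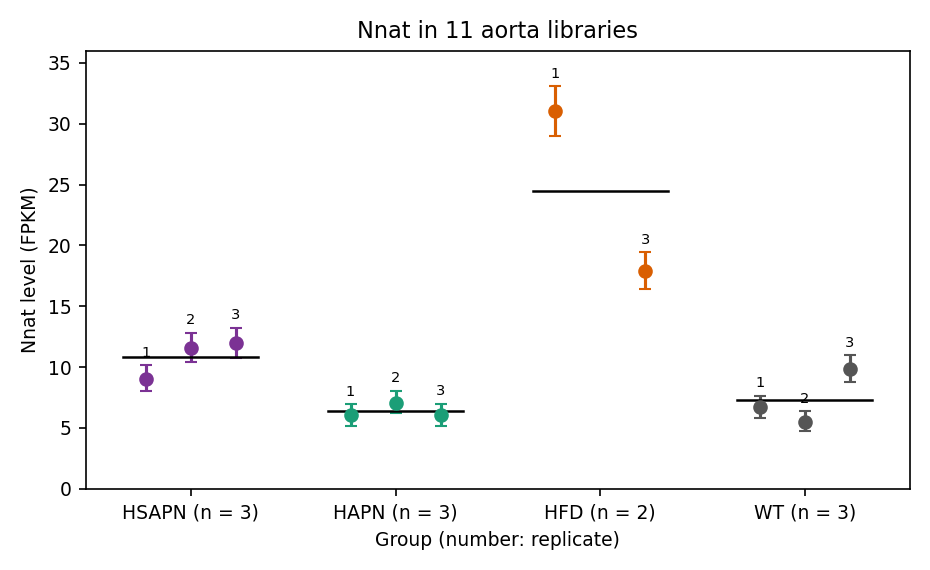
Nnat level in FPKM (vertical axis, from 0) in each of 11 libraries, by group, with the replicate number above each point. Points are libraries, bars are exact Poisson 95% intervals of the reads and cover counting error only, and black lines are group means; both HFD points, at 31.0 and 17.9 FPKM, lie above every other point, and the points of HSAPN lie above those of HAPN.

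In group means, Nnat was 10.9 ± 1.59 FPKM in HSAPN, 6.38 ± 0.611 FPKM in HAPN, 24.4 ± 9.28 FPKM in HFD and 7.33 ± 2.22 FPKM in WT (SD, n = 3, 3, 2 and 3). From high to low the order was thus HFD, HSAPN, WT and HAPN. HFD did not overlap its neighbour HSAPN. HSAPN overlapped WT, through WT replicate 3 at 9.81 FPKM, and HAPN lay inside the range of WT. HSAPN and HAPN, which are not neighbours in that order, did not overlap, although the lowest HSAPN library was only 1.28 times the highest HAPN library.

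On the log2(FPKM + 1) scale Nnat was 1.59 higher in HFD than in WT, with means of 4.62 and 3.03. It was 1.74 lower in HAPN (mean 2.88) than in HFD (log2 difference -1.74), and 1.06 lower in HSAPN (mean 3.56) than in HFD (log2 difference -1.06). Between HSAPN and HAPN the log2 difference was 0.68, and the SD of Nnat within groups, pooled over the 4 groups, was 0.311. The first 3 of these differences share the HFD libraries, and HFD has 2 of them, so they are not separate observations of a high HFD level. Without HFD replicate 1 the 3 differences were 1.21, -1.36 and -0.68, and without HFD replicate 3 they were 1.97, -2.12 and -1.44.

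Groups that do not overlap were common in these tables. The filter on low values, 1 FPKM or more in 3 or more libraries, left 1659 genes. Of these, 12.1% were higher in HFD than in WT without overlap of the groups, 19.8% lower in HAPN than in HFD, 14.2% lower in HSAPN than in HFD and 9.95% higher in HSAPN than in HAPN. Nnat belonged to each of these sets. In 2.23% of the genes, 36 and Nnat, both HFD libraries were above all of the other libraries. Groups held 86.3% of the spread of Nnat on the log2 scale, against a median of 42.7% over the genes tested. Nnat was chosen for this pattern, so nothing is read from its place among these shares.

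Counting error was small beside the spread between libraries. In HFD, 902 reads of Nnat in replicate 1 have an exact Poisson 95% interval of 844 to 963, and 544 reads in replicate 3 one of 499 to 592. These intervals do not overlap, and in FPKM the HFD libraries differed from each other by 1.73 times. Likewise WT replicate 3 with 305 reads (272 to 341) differed from WT replicate 2 with 180 reads (155 to 208). In HAPN the 3 libraries had 179, 231 and 173 reads, with intervals that overlap. Replicates of HAPN were the closest to each other, with an SD of 9.57% of the mean, against 14.6% in HSAPN, 38.0% in HFD and 30.3% in WT.

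Levels in the table were not centred alike. The median log2 difference over the 1659 genes was -0.24 between HAPN and HFD and -0.18 between HSAPN and HFD, and rescaling each library by the median ratio moved these medians to -0.01 and 0.01. With that scaling the log2 difference of Nnat was 1.52 between HFD and WT, -1.47 between HAPN and HFD, -0.84 between HSAPN and HFD and 0.64 between HSAPN and HAPN, each with the sign it had before.

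Marker genes of the cell types that an aorta sample can hold were set beside Nnat. In bulk tissue fewer cells of a type and less RNA per cell cannot be told apart. Of 18 fat cell genes, 17 were in the table, and their summed level ran from 90.0 to 199 FPKM in HSAPN, from 64.9 to 409 FPKM in HAPN, from 62.0 to 1972 FPKM in HFD and from 159 to 1267 FPKM in WT. HFD replicate 1 had the highest sum of all libraries and HFD replicate 3 the lowest.

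Nnat was high in both. In HFD replicate 3, with Nnat at 17.9 FPKM, the fat hormone gene Adipoq was at 0.174 FPKM, the lipid droplet gene Plin1 at 0.0129 FPKM, the adipsin gene Cfd at 2.15 FPKM and the leptin gene Lep at 0. Other genes of the fat cell list were not as low in that library. Pnpla2 was at 24.55 FPKM, against 22.61 FPKM in WT replicate 1, and Lipe at 12.43 FPKM, against 5.49 FPKM in WT replicate 1. In WT replicate 3, with Nnat at 9.81 FPKM, Adipoq was at 53.8 FPKM and Plin1 at 14.4 FPKM. The difference between the HFD libraries, 31.0 against 17.9 FPKM of Nnat, went with Adipoq at 92.6 against 0.174 FPKM and with Plin1 at 31.8 against 0.0129 FPKM. The part of fat in that difference was not tested.

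**Figure D2:**
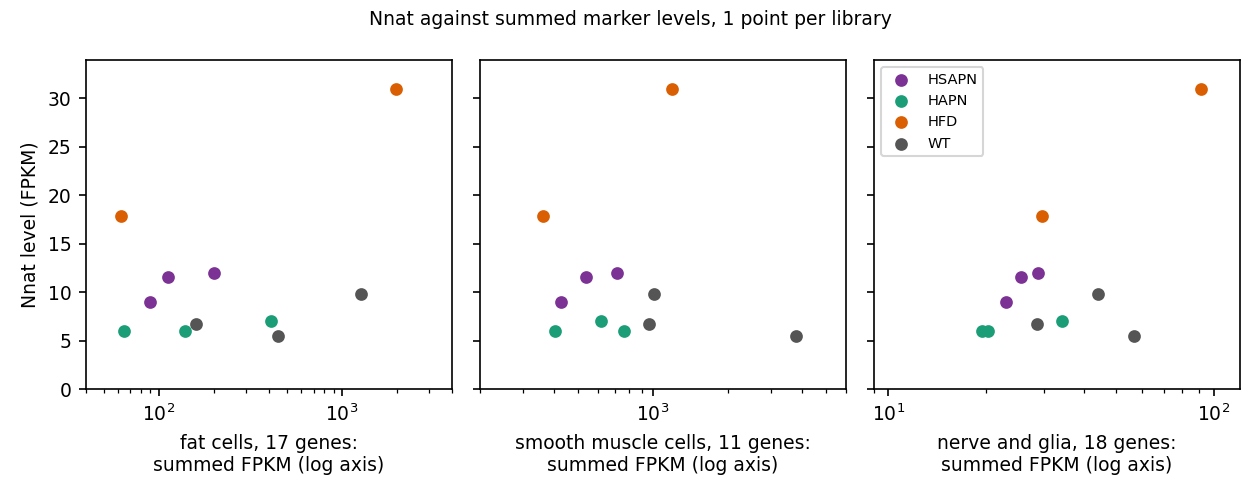
Nnat level in FPKM (vertical axis) against the summed FPKM of marker genes (horizontal log axes) for fat cells (17 genes), smooth muscle cells (11) and nerve and glia (18), with 1 point per library coloured by group. HFD replicate 3, at 17.9 FPKM of Nnat, has the lowest fat and smooth muscle sums, and HFD replicate 1, at 31.0 FPKM, has the highest fat and nerve sums.

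Smooth muscle genes, 11 of 12 in the table, summed to 427 to 714 FPKM in HSAPN, 404 to 765 FPKM in HAPN, 361 to 1197 FPKM in HFD and 964 to 3770 FPKM in WT, lowest in HFD replicate 3. Nerve and glia genes, 18 of 19, summed to 23.0 to 28.8 FPKM in HSAPN, 19.4 to 34.2 FPKM in HAPN, 29.6 to 91.2 FPKM in HFD and 28.6 to 56.7 FPKM in WT. Within that list the axon growth gene Gap43 was highest in the HFD libraries, as were 2.23% of all genes tested. It stood at 5.80, 7.82 and 7.91 FPKM in HSAPN, 3.89, 7.85 and 5.32 FPKM in HAPN, 9.41 and 10.4 FPKM in HFD, and 6.12, 4.37 and 6.95 FPKM in WT. Th, of catecholamine synthesis, was at 1.25 FPKM in HFD replicate 1 and at 0 in HFD replicate 3, and its part in the Nnat level was not tested.

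Endothelial cells were poorly covered, with 2 of 20 marker genes in the table. Gng11, a G protein subunit also abundant in platelets, was at 78.1, 83.0 and 79.9 FPKM in HSAPN, 58.2, 78.0 and 73.5 FPKM in HAPN, 96.9 and 98.9 FPKM in HFD and 51.2, 34.4 and 57.0 FPKM in WT. Ctla2a, an inhibitor of cathepsins, averaged 24.5 ± 4.72 FPKM in HSAPN, 24.7 ± 5.68 FPKM in HAPN, 38.5 ± 4.29 FPKM in HFD and 10.7 ± 4.52 FPKM in WT. Both genes were highest in HFD as Nnat was, which held for 2.23% of all genes tested. In HAPN they stood above WT, while Nnat lay inside the range of WT. The share of all genes with HAPN above WT was not counted, and 2 of 20 markers do not stand for endothelial cells. Platelet genes, 14 of 14, summed to 234 to 323 FPKM in HSAPN, 203 to 331 FPKM in HAPN, 278 and 717 FPKM in HFD and 119 to 188 FPKM in WT, and their part in the Nnat level was not tested.

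Likeness to Nnat was measured as Pearson's r of log2(FPKM + 1) over the 11 libraries in 1386 named genes, where its median was 0.24 and its range -0.80 to 0.93. These values describe libraries that share groups, tissue make-up and depth, and without HFD replicate 1 only 4 of the 16 genes named below stayed among the 16. The highest r belonged to Arxes2 (0.93), a fat-related gene of the X chromosome whose protein resembles a signal peptidase subunit. It stood at 4.55, 5.02 and 4.95 FPKM in HSAPN, 2.45, 4.58 and 3.29 FPKM in HAPN, 17.2 and 8.20 FPKM in HFD and 1.46, 2.08 and 5.84 FPKM in WT. As with Nnat, both HFD libraries were above the rest and WT replicate 3 was the highest of its group.

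The next were the histone gene Hist1h2bb (r = 0.88), the zinc finger gene Zfp931 (0.85), Tmed5 of vesicle transport between reticulum and Golgi (0.85), Rai2 (0.84), the nicotinamide methyltransferase gene Nnmt (0.84), Dhdh (0.84) and Mmd (0.84). Nnmt was at 5.03, 6.18 and 4.28 FPKM in HSAPN, 2.50, 2.71 and 5.14 FPKM in HAPN, 10.97 and 6.91 FPKM in HFD and 3.88, 3.69 and 6.42 FPKM in WT. Mmd, found in differentiating macrophages, was at 30.7 and 23.1 FPKM in HFD, against 12.0 to 20.2 FPKM in the other groups. After group means were taken out, r with Nnat was 0.90 for Dhdh, 0.88 for Tmed5 and 0.85 for Arxes2 but 0.31 for Hist1h2bb and 0.31 for Mmd, so the last 2 followed Nnat mostly between groups.

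**Figure D3:**
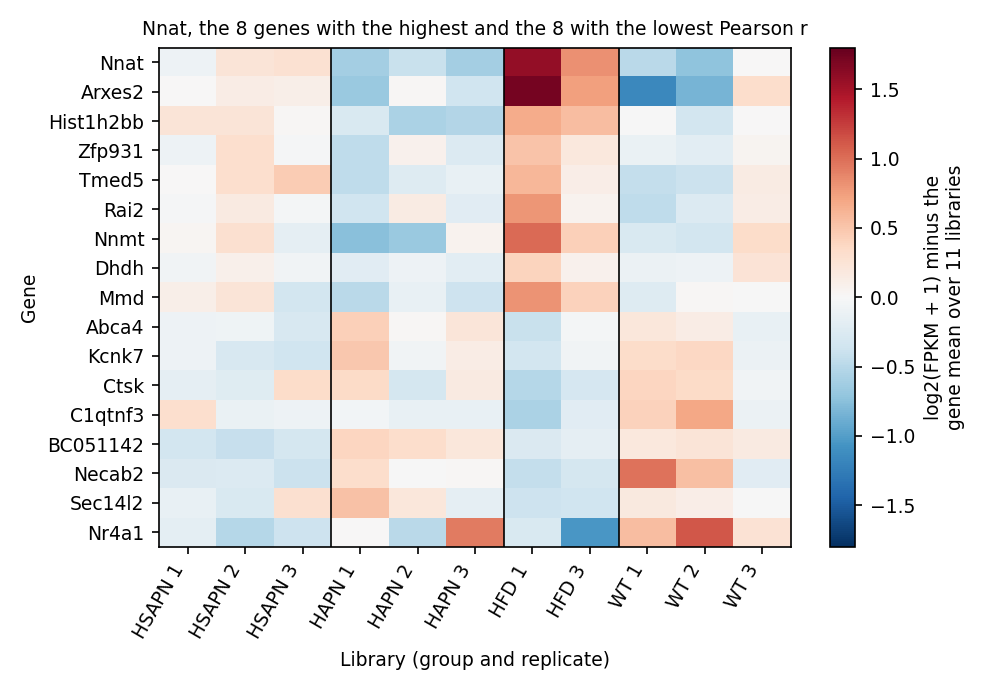
Level of each gene as log2(FPKM + 1) minus its mean over 11 libraries (colour), for Nnat, the 8 genes of highest Pearson r with it and the 8 of lowest (rows), in libraries ordered by group (columns). The upper 8 genes are high in HFD replicate 1, where Nnat is at 31.0 FPKM, and the lower 8 are mostly low in the HFD libraries.

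At the other end were the transporter gene Abca4 (r = -0.80), the channel gene Kcnk7 (-0.73), the matrix protease gene Ctsk (-0.71), the adipokine gene C1qtnf3 (-0.69), BC051142 (-0.69), the calcium-binding protein gene Necab2 (-0.69), Sec14l2 (-0.65) and the immediate early gene Nr4a1 (-0.63). Ctsk, for cathepsin K, was at 24.8, 23.9 and 35.5 FPKM in HSAPN, 35.6, 22.3 and 31.4 FPKM in HAPN, 19.2 and 22.6 FPKM in HFD and 36.9, 35.9 and 26.7 FPKM in WT. The HFD range overlapped that of HAPN. C1qtnf3 had an r of -0.92 after group means were taken out, and Sec14l2 one of -0.02. None of the 16 genes passed a limma adjusted p of 0.05 in any of the 4 comparisons. The smallest limma adjusted p among them was 0.0627, for Hist1h2bb between HAPN and HFD (log2 -1.07, SE 0.181). Hist1h2bb passed the filter on low values only through both HFD libraries and HSAPN replicates 1 and 2. The 16 genes were picked by likeness to Nnat in these same libraries, so their p-values are no separate test.

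The background of calls was low. By limma with Benjamini-Hochberg adjustment, 0% of the 1659 genes were called between HFD and WT (0 genes, 189 at an unadjusted p under 0.05) and 0% between HSAPN and HFD (0 genes, 67). Called were 0.181% between HAPN and HFD (3 genes, 143 at an unadjusted p under 0.05), with 0.121% higher and 0.0603% lower, and 0.121% between HSAPN and HAPN (2 genes, 130). No gene of the lists described below was among the called ones, while 1 chromosomal neighbour of Nnat was. Between HFD and WT 27 genes were called without WT replicate 3 and 17 without HFD replicate 3. Few genes were called in any comparison, so these counts do not set the lists apart from other genes.

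Imprinted genes were compared with Nnat because they share its mode of inheritance. Of the 64 others on the list, 17 were in the table, Blcap not among them, and 8 passed the filter on low values. The 9 below the filter held H19 (0 to 0.716 FPKM), Meg3 (0.0788 to 0.643 FPKM) and the growth factor gene Igf2 (0 to 0.0323 FPKM). Some of the list, such as Dcn and Slc22a3, are known to be imprinted in placenta, so imprinting in aorta is not given for each. Of the 8, 6 were above and 2 below between HFD and WT (median log2 0.25, against 0.07 over all genes tested), and 0 were called.

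Between HAPN and HFD 2 of these genes were above and 6 below (median -0.44, against -0.24), and between HSAPN and HFD again 2 were above and 6 below (median -0.24, against -0.18). Between HSAPN and HAPN 4 were above and 4 below (median -0.06, against 0.03). Mest, a paternally expressed hydrolase gene of fat expansion, was the closest to Nnat (r = 0.76). It was at 1.44, 2.11 and 1.60 FPKM in HSAPN, 0.938, 1.38 and 1.002 FPKM in HAPN, 2.88 and 1.07 FPKM in HFD and 0.507, 0.666 and 1.48 FPKM in WT, and HFD overlapped each other group.

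**Figure D4:**
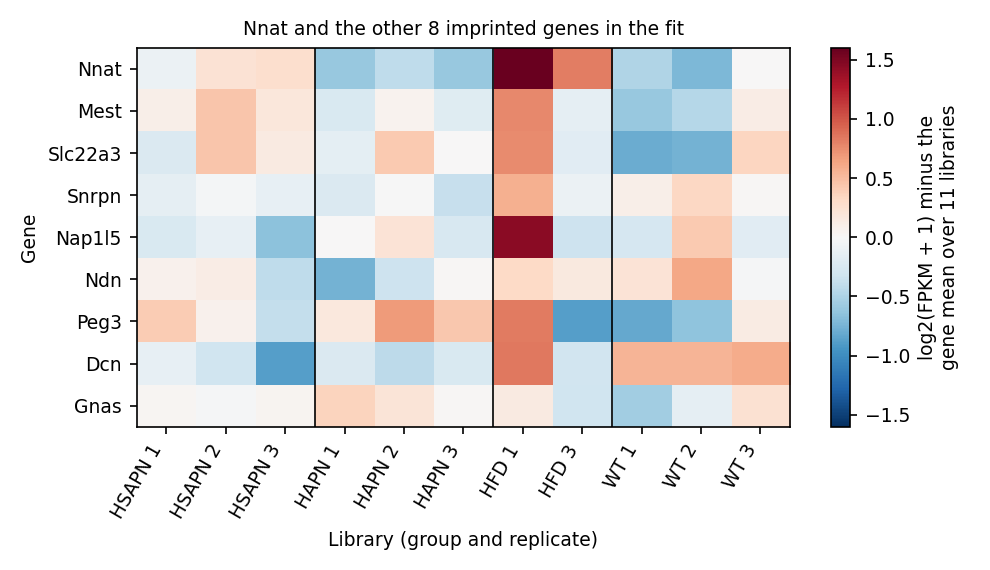
Level of each gene as log2(FPKM + 1) minus its mean over 11 libraries (colour), for Nnat and the other 8 imprinted genes in the fit, ordered by r with Nnat (rows), in libraries ordered by group (columns). Several imprinted genes are high in HFD replicate 1, while in HFD replicate 3 Nnat, at 17.9 FPKM, stands farthest above its mean.

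A network of genes tied to imprinted growth control, all of them also on the imprinted list, had 8 of 15 members in the table. The 5 in the fit, Mest, Peg3, Ndn, Gnas and Dcn, are among the 8 imprinted genes above, and 0 were called. Their median log2 difference was 0.06 between HFD and WT and -0.43 between HAPN and HFD, which is not a separate observation. The HFD libraries parted in most imprinted genes. Peg3, a zinc finger gene, was at 5.99 FPKM in HFD replicate 1 and at 1.14 FPKM in HFD replicate 3, the highest and the lowest of all libraries. Nap1l5, of the nucleosome assembly family, was at 5.39 and 0.880 FPKM in HFD, against 0.490 to 2.15 FPKM elsewhere. Slc22a3, a cation transporter gene, was at 3.38 and 1.29 FPKM, Snrpn, of RNA splicing, at 2.68 and 1.31 FPKM, and Gnas, of G protein signalling, at 1.21 and 0.602 FPKM in HFD. Ndn, for the neuronal protein necdin, was at 4.76 and 4.12 FPKM in HFD, within the 3.54 to 6.09 FPKM of WT. Dcn, for the matrix proteoglycan decorin, was at 31.6 ± 8.16 FPKM in HSAPN, 34.2 ± 2.39 FPKM in HAPN, 55.2 ± 30.0 FPKM in HFD and 62.7 ± 1.23 FPKM in WT. Nnat was above all other groups in both HFD libraries, and none of these 8 genes was, against 2.23% of all genes tested. Nnat was chosen for its high HFD level, so this does not set it apart from them.

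No chromosomal neighbour in the table had both HFD libraries above all of the others, which 2.23% of all genes tested had. Of 70 annotated genes within 1 Mb, 5 were in the table. Adig, an adipogenin gene of fat cells 940 kb downstream, was at 0.909, 0.774 and 3.12 FPKM in HSAPN, 2.74, 3.95 and 1.57 FPKM in HAPN, 17.9 and 1.78 FPKM in HFD and 3.17, 7.94 and 11.04 FPKM in WT. It was high in the libraries rich in fat markers and low in HFD replicate 3. The pseudogene Gm14202, 844 kb downstream, passed the threshold between HAPN and HFD in the direction opposite to Nnat (3.50 ± 0.768 against 0.198 ± 0.00624 FPKM, log2 1.90, SE 0.213, limma adjusted p = 0.0113), but 0 genes were called in that comparison without HAPN replicate 2. In HFD, Gm14202 was near the floor, at 0.202 and 0.193 FPKM, so the small SD there says little about spread. It passed the filter only through the HAPN libraries and HSAPN replicates 1 and 2, where it was highest. Myl9, of contractile smooth muscle, had an r of -0.20, and Vstm2l and Gm14169 were below the filter.

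Partners of neuronatin were mostly not in the table. None of the 9 genes of the calcium pump and its small regulators and none of the 5 signal peptidase genes was listed. Of 19 genes of calcium release and storage 3 were listed and 2 tested, Casq1 and Jph2. Both were below in HFD relative to WT (log2 -0.87 and -0.58) and not called. WT replicate 2 was the highest library in both (5.70 and 33.5 FPKM), and the HFD and WT ranges overlapped. Of 19 genes of the unfolded protein response 1 was listed, Atf3, with an r of -0.58 with Nnat.

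Genes of endothelial activation, a setting in which Nnat was described, were 5 of 23 in the table and 4 in the fit, with 0 called. Ccl5, a chemokine gene, was at 24.8, 27.7 and 14.9 FPKM in HSAPN, 7.26, 18.4 and 48.5 FPKM in HAPN, 10.5 and 14.3 FPKM in HFD and 3.33, 6.06 and 23.2 FPKM in WT. HSAPN lay above HFD by a narrow gap, 14.87 against 14.34 FPKM, and the other groups overlapped. The share of all genes tested with HSAPN above HFD was not counted. Between HSAPN and HFD the log2 difference of Ccl5 was 0.78 (SE 0.803, limma adjusted p = 0.886). The interferon-induced chemokine gene Cxcl10 was at 41.8 FPKM in HAPN replicate 3 and at 0.152 to 15.1 FPKM in the other libraries. Tnfaip3, an inhibitor of NF-kappa-B signalling, averaged 4.51 ± 1.51 FPKM in HSAPN, 5.23 ± 3.29 FPKM in HAPN, 3.36 ± 0.586 FPKM in HFD and 2.57 ± 2.02 FPKM in WT, with n as for Nnat. Ptgs2, for an inducible cyclooxygenase, averaged 4.98 ± 0.565 FPKM in HSAPN, 5.98 ± 4.11 FPKM in HAPN, 3.75 ± 0.214 FPKM in HFD and 4.71 ± 0.379 FPKM in WT. All 4 had a higher mean in HAPN than in HFD (median log2 difference 0.50, against -0.24 over all genes tested), where Nnat had a lower one. The same held between HSAPN and HFD (median 0.55, against -0.18). The libraries did not follow these means evenly. HAPN replicate 1 was below both HFD libraries in Ccl5, Cxcl10 and Tnfaip3. In Ptgs2 only HAPN replicate 1, at 10.7 FPKM, was above both HFD libraries. Between HFD and WT 3 were above and 1 below (median 0.49, against 0.07 over all genes tested). Selp, for P-selectin, was below the filter, at 2.41 FPKM in HFD replicate 1 and 0.109 FPKM in HFD replicate 3.

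Regulators of fat cell differentiation were 7 of 14 in the table and 5 in the fit, with 0 called. Between HFD and WT 4 were above and 1 below (median log2 0.38, against 0.07 over all genes), and between HAPN and HFD 0 above and 5 below (median -0.21, against -0.24). Ebf1, a transcription factor gene of early fat cells, had the highest r with Nnat of the 5 (0.72). It was at 1.33, 1.68 and 1.33 FPKM in HSAPN, 1.25, 1.89 and 1.08 FPKM in HAPN, 3.09 and 1.47 FPKM in HFD and 0.580, 1.05 and 2.01 FPKM in WT. Pparg, the main regulator of fat cells, averaged 3.21 ± 0.279 FPKM in HSAPN, 3.48 ± 0.757 FPKM in HAPN, 4.64 ± 1.63 FPKM in HFD and 5.20 ± 1.38 FPKM in WT, and its r was 0.17.

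For the cell type lists, 0 members were called in any comparison. Between HAPN and HFD 15 of 15 tested fat cell genes, 14 of 14 platelet genes, 8 of 8 nerve and glia genes and 8 of 8 fibroblast genes were below, with median log2 differences of -0.92, -0.45, -0.65 and -0.61 against -0.24 over all genes. Smooth muscle genes were below in 8 of 10 (median -0.20) and red blood cell genes in 7 of 9 (-0.30). Between HSAPN and HFD the fat cell genes were again below in 15 of 15 (median -1.30), the platelet genes in 14 of 14 (-0.39), the nerve and glia genes in 8 of 8 (-0.62), the fibroblast genes in 8 of 8 (-0.34) and the smooth muscle genes in 9 of 10 (-0.24), against a median of -0.18 over all genes. Red blood cell genes were above in 9 of 9 there (0.35). HFD replicate 1, with the highest fat sum, enters both comparisons. Between HFD and WT fat cell genes were above in 8 and below in 7 (median 0.05), and platelet genes above in 14 of 14 (1.39), red blood cell genes above in 9 of 9 (1.58), smooth muscle genes below in 9 of 10 (-1.08) and fibroblast genes below in 7 of 8 (-0.24), against a median of 0.07 over all genes. Of heart muscle genes 3 of 13 were listed, of airway genes 2 of 12 and of macrophage genes 2 of 10, with r of 0.08, 0.02 and 0.64 between Nnat and the mean level of the list. The HFD libraries differed in these sums as they did in fat. The airway sum was 41.1 to 1229 FPKM in HSAPN, 7.08 to 4162 FPKM in HAPN, 6777 FPKM in HFD replicate 1, 10.9 FPKM in HFD replicate 3 and 268 to 11670 FPKM in WT. The heart muscle sum was 15.6 to 155 FPKM in HSAPN, 7.79 to 129 FPKM in HAPN, 389 FPKM in HFD replicate 1, 7.92 FPKM in HFD replicate 3 and 48.3 to 310 FPKM in WT. Nnat was above all other groups in both HFD libraries, and the part of these tissues in the difference between them was not tested.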

How the data were processed

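Aorta RNA was taken up in TRIzol and sequenced from directional libraries, per the labels' protocols. FeatureCounts 1.5.0-p3, DESeq 1.8.3 and the GRCm38 build stand in the submitters' processing notes without a role; no aligner, annotation or strand setting was given. Each deposited file holds 3534 symbols with 1 value, read as FPKM made by the authors. With GENCODE M21 exonic lengths, 95.7 to 97.0% of values up to 20 reads came within 0.1 of a whole read, a check that does not separate FPKM from TPM. The rows hold 12.0 to 17.6% of the fitted reads, and what chose them is not known. Dlg2, listed more than 1 time, was left out, and 4 date-like names were not used. Some single results are not reported here.

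Nnat, the lists and the tests were chosen with earlier results of these data known. Genes reaching 1 FPKM in 3 or more libraries entered limma-trend (limma 3.58.1, R 4.3.3) on log2(FPKM + 1), in 1 fit of 4 group means with 7 residual degrees of freedom. Adjustment was by Benjamini-Hochberg over all tested genes, with a threshold of 0.05, and the test was checked on simulated data. Named were Nnat, the 8 genes of highest and of lowest Pearson r, imprinted genes in the fit, neighbours within 1 Mb, tested genes of the endothelial activation list and the 2 highest genes of each marker list, not all of them described; others were chosen after their values were seen. Alternatives were pseudocount, filter, scaling, replicate block, groups fitted and libraries left out. Python 3.11.15, NumPy 2.4.6, pandas 2.3.3, SciPy 1.17.1 and matplotlib 3.10.9 were used.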

Additional observations from a re-analysis of the deposited data

How the results depend on the processing

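Counts of called genes (limma, Benjamini-Hochberg) rested on few genes and moved with the settings. With no filter on low values they were 2 for HFD minus WT, 5 for HAPN minus HFD, 2 for HSAPN minus HFD and 1 for HSAPN minus HAPN. With the identical HFD files counted as 2 libraries, chosen after seeing the data, they were 6, 10 and 2 for the first 3, and 1 list member, Ctla2a, was called between HFD and WT. Between HAPN and HFD 0 genes were called with the replicate block, 0 with only these groups fitted and 5 with median-ratio scaling, also chosen after seeing the data; between HSAPN and HAPN 0 were called with only these groups fitted. Leaving out 1 library gave 0 to 27 genes between HFD and WT (27 without WT replicate 3, 17 without HFD replicate 3, 1 without HFD replicate 1). It gave 0 to 5 between HAPN and HFD (0 without HAPN replicate 2, 1 without HFD or HAPN replicate 1, 5 without HFD replicate 3) and 0 to 3 between HSAPN and HFD (1 without HFD replicate 1, 3 without HFD replicate 3). Between HSAPN and HAPN it gave 0 to 3 (0 without HAPN replicate 2 or any HSAPN library, 1 without HAPN replicate 1, 3 without HAPN replicate 3). List members called between HFD and WT ran from 0 to 6: without WT replicate 3 they were Clec1b, Hba-a1, Hbb-bt, Ctla2a, Hbb-bs and Gng11, and without HFD replicate 3 there were 5 platelet genes. In the other 3 comparisons 0 list members were called whichever library was left out.

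The log2 difference of Nnat kept its sign in every alternative run. Nnat was chosen for this pattern, and its groups did not overlap in any of these comparisons. Leaving out 1 library or changing the pseudocount therefore could not change the sign, and only the sizes are informative. Leaving out 1 library it ran from 1.21 to 1.97 for HFD minus WT, -2.12 to -1.36 for HAPN minus HFD, -1.44 to -0.68 for HSAPN minus HFD and 0.61 to 0.79 for HSAPN minus HAPN. The genes most like Nnat changed with the settings: of the 16, 6 were shared with Spearman's rho, 1 with deviations from group means, 7 with the stricter filter of 5 FPKM, and 4 to 13 with 1 library left out (4 without HFD replicate 1). Same-numbered libraries showed no steady likeness in their deviations from group means (r from -0.592 to 0.499). With 2 or 3 libraries in a group, these r values cannot say whether the numbers pair the samples. The labels do not say so either, and the replicate block is given only here. The causes of these changes were not tested.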

Other observations

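Besides Nnat, 36 genes of the fit had both HFD libraries above all of the others. They were found by their values, so this is a description with no test. Crls1, an enzyme gene of cardiolipin synthesis, was at 15.5 and 15.1 FPKM in HFD, against 9.77 to 12.7 FPKM in the other groups. Ret, a receptor tyrosine kinase gene of the nervous system, was at 2.96 and 2.18 FPKM in HFD, against 1.15 to 1.98 FPKM elsewhere. The tubulin gene Tubb4a, known from neurons, was at 10.1 and 9.34 FPKM in HFD, against 3.62 to 7.60 FPKM. Aplp1, of the amyloid precursor family, was at 4.25 and 4.11 FPKM, against 1.66 to 3.66 FPKM. Tmeff2 was at 2.04 and 1.85 FPKM, against 0.332 to 1.54 FPKM. Angptl4, an inhibitor of lipoprotein lipase, was at 36.3 and 28.3 FPKM in HFD and spread from 13.6 to 21.5 FPKM in the other high-fat groups, against 3.59 to 16.02 FPKM in WT. In most of the 36 genes, Crls1 and Aplp1 among them, the HFD libraries were relatively closer to each other than in Nnat. For Nnat they stood at 31.0 and 17.9 FPKM. The immunoglobulin gene Igkv12-89 was at 10.97 and 6.05 FPKM in HFD, against 0 to 2.65 FPKM elsewhere. Its level is uncertain, since near-identical family members share reads.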
